A study of Homo sapiens with 48 samples.

Results

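The clustered histone genes were examined as 33 genes with 36 Illumina bead-array probes, of 31426 gene symbols on the array. Members were chosen by name, from symbols that begin with HIST1H, HIST2H, HIST3H or HIST4H, and by a detection p-value under 0.01 on 2 or more of 48 arrays. Of 75 such probes among the 47323 on the array, 36 met the detection rule, and they were tested together with the other probes that met it, 22637 in all. By protein class they comprised 2 H1, 10 H2A, 11 H2B, 6 H3 and 7 H4 probes. By cluster, 25 belonged to HIST1, 10 to HIST2 and 1 to HIST3. HIST1H1A and HIST2H2AB entered with detection on 2 arrays each, and 6 probes stayed out with detection on 1 array, among them HIST4H4, the sole HIST4 gene.

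RNA came from 2 human prostate cancer cell lines, 22Rv1, which was established from a serially passaged tumour xenograft, and PC-3, which derives from a skeletal metastasis. Cultures in RPMI-1640 medium at 37 °C spent 24 h in a hypoxia chamber, at 0% O2 (no oxygen) or at 1 of 5 levels that were 0.2% O2, 0.5% O2, 1% O2, 2% O2 and 5% O2, and each level had its own normoxia control in 95% air. Each combination of line, level and condition had 2 arrays, which gave 24 groups and 12 arrays per line and condition. The labels do not say whether the 2 arrays of a group came from separate cultures, and p-values therefore reflect array-to-array spread that may be technical only.

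Histones package DNA. A pair of H3-H4 dimers and a pair of H2A-H2B dimers form the core of the nucleosome, and H1 binds the linker between cores. Most clustered histone genes are transcribed in S phase, when new chromatin is assembled, and their mRNAs end in a stem-loop bound by SLBP in place of a poly(A) tail. Several of them, HIST1H2BD, HIST1H2BK and HIST2H2BE among those known, also give polyadenylated transcripts in cells that leave the cycle or differentiate. Labelling for bead arrays of this kind usually starts from the poly(A) tail. Which transcript form each probe read was not tested.

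Upstream sequence was taken from RefSeq (GRCh38.p14) as the 300 bases from 250 before to 50 after each annotated start. Of the 33 symbols, 30 matched a single current gene and 29 of these had a sequence. The 5 genes below are shown because the largest changes and the largest disagreements between probes fell on them. HIST2H2BE (now H2BC21) is at chr1:149886633-149886932 on the minus strand, HIST2H2AA3 (H2AC18) at chr1:149842701-149843000 on the minus strand, HIST1H2BD (H2BC5) at chr6:26157872-26158171 on the plus strand, HIST1H2BK (H2BC12) at chr6:27146806-27147105 on the minus strand, and HIST1H4H (H4C8) at chr6:26285485-26285784 on the minus strand. Capitals mark, on either strand, the letters CCAAT (the core read by NF-Y), TATAAA (the TATA box), ATTTGCAT (the octamer of H2B promoters), TTTCGCGC and TTTGGCGC (E2F-type sites) and ACGTG (the core of the hypoxia response element). Matches that overlap run together.
HIST2H2BE: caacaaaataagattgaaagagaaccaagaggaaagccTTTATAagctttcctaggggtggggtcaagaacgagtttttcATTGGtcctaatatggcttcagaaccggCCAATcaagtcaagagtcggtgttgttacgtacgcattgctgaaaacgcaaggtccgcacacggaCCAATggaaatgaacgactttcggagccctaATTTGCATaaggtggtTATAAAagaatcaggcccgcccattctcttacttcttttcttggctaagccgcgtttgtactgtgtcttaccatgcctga
HIST2H2AA3: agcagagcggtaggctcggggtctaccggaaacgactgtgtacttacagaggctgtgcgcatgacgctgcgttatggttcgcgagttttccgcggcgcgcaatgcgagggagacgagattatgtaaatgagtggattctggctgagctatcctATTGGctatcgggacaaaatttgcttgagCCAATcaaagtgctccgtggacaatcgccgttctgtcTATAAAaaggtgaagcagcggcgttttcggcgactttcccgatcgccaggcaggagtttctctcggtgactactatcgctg
HIST1H2BD: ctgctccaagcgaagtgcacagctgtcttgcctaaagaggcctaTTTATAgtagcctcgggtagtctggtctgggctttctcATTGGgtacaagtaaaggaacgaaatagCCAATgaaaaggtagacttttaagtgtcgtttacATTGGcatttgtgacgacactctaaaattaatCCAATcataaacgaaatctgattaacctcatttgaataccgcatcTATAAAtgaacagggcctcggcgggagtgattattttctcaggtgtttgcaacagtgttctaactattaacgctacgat
HIST1H2BK: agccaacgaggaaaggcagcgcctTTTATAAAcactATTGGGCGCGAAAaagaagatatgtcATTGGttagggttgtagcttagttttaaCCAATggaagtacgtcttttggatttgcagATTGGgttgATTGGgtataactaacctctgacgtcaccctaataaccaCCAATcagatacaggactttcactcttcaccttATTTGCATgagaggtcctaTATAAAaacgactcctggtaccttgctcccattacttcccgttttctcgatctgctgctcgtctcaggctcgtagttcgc
HIST1H4H: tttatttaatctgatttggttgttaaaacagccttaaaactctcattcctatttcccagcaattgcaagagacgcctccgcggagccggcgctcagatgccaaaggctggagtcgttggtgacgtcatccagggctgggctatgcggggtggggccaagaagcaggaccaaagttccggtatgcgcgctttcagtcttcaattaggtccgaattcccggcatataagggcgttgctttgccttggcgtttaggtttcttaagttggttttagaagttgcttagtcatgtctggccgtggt
HIST2H2BE and HIST2H2AC lie head to head, their starts 236 bases apart, and their windows share 265 bases, so 1 sequence shows both. CCAAT occurred in 23 of the 29 windows (79.3%), against 34.6% of 35116 RefSeq promoters, and in none of the 6 H4 windows. TATAAA occurred in 65.5% of the histone windows and 11.5% of all promoters. The octamer occurred in 37.9% and 1.77%, in 5 of 6 H2B and 6 of 9 H2A windows, but not in the window of HIST1H2BD. TTTCGCGC occurred in 20.7% and 0.515%, TTTGGCGC in no histone window and 0.652% of all promoters, and ACGTG in 20.7% and 21.4%. None of the 5 windows printed holds ACGTG, and the window of HIST1H4H holds none of the 6 words. A match describes the letters and is not a binding site. The windows of HIST2H2AA3 and HIST2H2AA4 share an identical run of 299 bases and those of HIST2H4A and HIST2H4B are identical over 300 bases, so probes for such copies may read both genes and their values are uncertain as to which copy they measure.

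Between 13750 and 16494 probes were detected per array, and 11 of the 36 histone probes were detected on all 48 arrays. In 22Rv1 cells 13 to 20 histone probes were detected per array, and in PC-3 cells 25 to 33. Values below are log2 intensities after background correction and quantile normalization, on which probes at background lie between about 4 and 5, and the lowest signal of any detected probe was 4.96 to 5.34 depending on the array. The lines carried their own markers: KLK2 and FOLH1 were detected on 24 of 24 22Rv1 arrays and 0 of 24 PC-3 arrays, AXL and TGFBI on 0 of 24 22Rv1 arrays and 24 of 24 PC-3 arrays, and KLK3 on none. Of the markers of other cell types, the leukocyte marker PTPRC was detected on no array, HBB of erythroid cells on 1 of 24 and 0 of 24, the endothelial marker PECAM1 on 0 of 24 and 22 of 24, and the fibroblast marker COL1A1 on 6 of 24 and 21 of 24, in 22Rv1 and PC-3 cells. Their part in the results was not tested. The deposited tables give opposite labels to 2 arrays, hypoxia and normoxia of 22Rv1 replicate 2 at 0.2% O2. Labels follow the intensity table, and the counts and the main values that rest on these arrays are also given with the labels exchanged or without both arrays.

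In 22Rv1 cells HIST2H2AA3, HIST2H2AA4 and HIST2H2BE, 3 of the 6 H2A and H2B genes measured in the HIST2 cluster, rose under hypoxia. No H3 probe passed upward, but all H3 probes lay near background, detected on at most 5 of 12 22Rv1 hypoxia arrays. Most H4 probes did not pass the test. Averaged over the 6 levels, 9 of 36 histone probes were higher in hypoxia (17.5% of all probes tested were) and 10 were lower (20.9% of all probes), at an adjusted p under 0.05 in limma with Benjamini-Hochberg adjustment over all probes. The median difference was -0.10 over the histone probes, against -0.01 over all probes tested, and the range -0.58 to 1.23. By class, 4 of 10 H2A probes were higher and 1 lower, 3 of 11 H2B probes higher and 3 lower, 0 of 6 H3 probes higher and 3 lower, 1 of 7 H4 probes higher and 2 lower, and 1 of 2 H1 probes each way. The higher H2A probes include those of HIST2H2AA3 and HIST2H2AA4, which may read each other's gene. A difference between classes was not tested. With the doubted labels exchanged 8 were higher and 8 lower, and without both arrays 8 were higher and 10 lower. With same-numbered arrays as a block (the replicate block) 9 were higher and 13 lower (45.4% of all probes called). In bulk RNA fewer cells in S phase and less RNA per cell cannot be told apart.

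The calls were made at 1% O2 and below. At 0% O2, 5 histone probes were higher (12.1% of all probes) and 4 lower (13.7%); when arrays were centred on their medians instead of quantile-normalized, the split was 4 higher and 2 lower, and with the replicate block 6 and 8 (34% of all probes called). At 0.2% O2, 7 were higher (4.78%) and 0 lower (4.24%). With the doubted labels exchanged limma called 0 of all probes tested at this level. A histone count of 0 under that exchange is therefore not particular to histone probes. At 0.5% O2, 9 were higher (11.3%) and 1 lower (13.4%), and at 1% O2, 6 were higher (6.09%) and 1 lower (6.18%). The replicate block gave 8 higher and 0 lower at 0.2% O2 (17.1% of all probes called), 9 and 2 at 0.5% (33%) and 6 and 2 at 1% (20.9%). At 2% O2 limma called 0 of 36 (3.3% of all probes called), with 8 at an unadjusted p under 0.05, and 3 with the replicate block (10.1% of all probes; HIST2H2AA3 ILMN_1659047, HIST2H2BE and HIST1H2BK ILMN_1796179, all higher), and at 5% O2 it called 0 (0.0751%), with 1 at an unadjusted p under 0.05. The count at 0.2% O2 depended on single arrays and labels: it was 2 without hypoxia replicate 1, 0 with the doubted labels exchanged and 7 without both doubted arrays. Without 1 array the count was 4 at 1% O2 (without normoxia replicate 1), 6 at 0.5% O2 (without normoxia replicate 2) and 5 at 0% O2 (without hypoxia replicate 2).

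**Figure D1:**
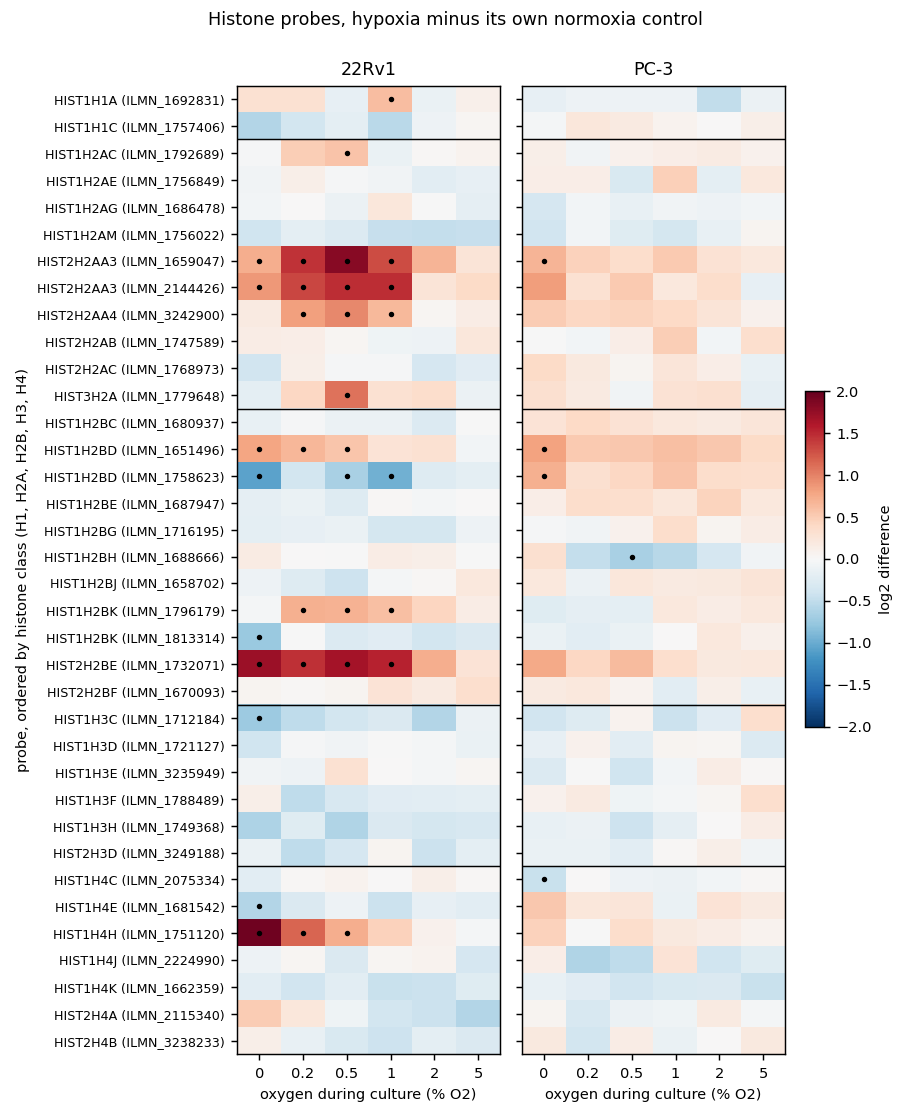
Log2 difference, hypoxia minus the matched normoxia control, for 36 histone probes (rows, by class) at 6 oxygen levels (columns, % O2) in 22Rv1 and PC-3 cells. Dots mark adjusted p under 0.05 in limma. The darkest red cells belong to HIST2H2BE, both HIST2H2AA3 probes and HIST1H4H in 22Rv1 cells at 1% O2 or less.

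HIST2H2BE, which encodes an H2B, had the largest mean change of all members. In 22Rv1 cells its 2 arrays read 7.89 and 7.71 at 0% O2, 8.39 and 7.39 at 0.2%, 8.00 and 8.24 at 0.5%, 7.70 and 7.75 at 1%, 7.33 and 6.82 at 2%, and 6.94 and 5.93 at 5%, against 5.98 to 6.56 (median 6.23) on the 12 normoxia arrays. As labelled, every array at 2% O2 or less lay above all normoxia arrays, while at 5% O2 the lower replicate lay below them. With the doubted labels exchanged, the array at 7.39 counts as normoxia and lies above both arrays at 2% O2. The log2 differences from 0 to 5% O2 were 1.71, 1.46, 1.66, 1.54, 0.73 and 0.27. Those at 1% and below passed the test (adjusted p 7.5e-06 at 0%, 0.00034 at 0.2%, 1.8e-05 at 0.5% and 0.00014 at 1%). The mean over levels was 1.23 ± 0.11 (SE, 12 arrays against 12, adjusted p = 5.5e-11), with 11 of 12 same-numbered pairs higher. It was 1.09 with the doubted labels exchanged and 1.33 without both arrays. Under the exchange 0 of all probes tested passed at 0.2% O2, so a lost call there is not particular to HIST2H2BE. At 0.2% O2 the difference was 0.64 with the labels exchanged (adjusted p = 0.99992), 0.96 without hypoxia replicate 1 (adjusted p = 0.087) and 2.10 without both doubted arrays (adjusted p = 7.8e-05).

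HIST2H2AA3 and HIST2H2AA4 encode the same H2A protein, and their 3 probes moved together. Probe ILMN_1659047 of HIST2H2AA3 read 7.76 and 7.95 in 22Rv1 cells at 0% O2, 8.98 and 8.40 at 0.2%, 8.87 and 8.77 at 0.5%, 8.28 and 8.51 at 1%, 7.60 and 7.40 at 2%, and 6.94 and 6.86 at 5%, against 6.49 to 7.45 (median 6.98) in normoxia. The highest levels were at 0.2 and 0.5% O2, not at 0%. Its mean difference was 1.04 ± 0.08 (SE, adjusted p = 4.3e-12, 12 of 12 pairs higher), with 0.72, 1.45, 1.82, 1.31, 0.69 and 0.25 from 0 to 5% O2. Probe ILMN_2144426 of the same gene rose by a mean of 0.96 ± 0.13 (adjusted p = 1.7e-07, 10 of 12 pairs higher), with a maximum of 1.47 at 0.5 and at 1% O2. HIST2H2AA4 rose by 0.47 ± 0.08 (adjusted p = 5.3e-06, 9 of 12 pairs higher), by 0.81, 0.96 and 0.65 at 0.2, 0.5 and 1% O2, while its differences of 0.19 at 0%, 0.04 at 2% and 0.16 at 5% O2 did not pass. With the doubted labels exchanged these means were 0.88, 0.83 and 0.41, all still past the threshold. Under the exchange 0 of all probes tested passed at 0.2% O2. At 0.2% O2 alone the exchange left differences of 0.49, 0.54 and 0.47 (adjusted p = 0.99992 each), and without both doubted arrays they were 1.94, 1.87 and 1.29, all past the threshold. Without hypoxia replicate 1 at 0.2% O2 the calls of ILMN_2144426 (0.85, adjusted p = 0.30) and HIST2H2AA4 (0.39, adjusted p = 0.39) were lost. Median centring ended the calls of HIST2H2AA4 at 0.2% (adjusted p = 0.25) and 1% O2 (adjusted p = 0.45) and that of ILMN_1659047 at 0% (adjusted p = 0.083). At 0% O2 each HIST2H2AA3 probe lost its call without 1 array (ILMN_1659047 without hypoxia replicate 2 or normoxia replicate 1, ILMN_2144426 without any of the 4), and HIST2H2AA4 lost its call at 1% O2 without any of the 4. ILMN_2144426 also lost it without hypoxia replicate 2 at 1% O2 (adjusted p = 0.054) and without normoxia replicate 2 at 0.5% O2 (adjusted p = 0.053).

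HIST2H2AC, the H2A gene that shares its upstream region with HIST2H2BE, did not rise with its partner in 22Rv1 cells. It read 8.46 to 9.34 (median 8.75) in hypoxia and 8.75 to 9.23 (median 8.98) in normoxia, and the ranges overlapped. Its mean difference was -0.15 ± 0.07 (SE) and did not pass (adjusted p = 0.086), but it passed with same-numbered arrays as a block (adjusted p = 0.012). At 0% O2, where HIST2H2BE was 1.71 higher, HIST2H2AC differed by -0.39. HIST3H2A, a further H2A gene, rose by a mean of 0.31 ± 0.10 (SE, adjusted p = 0.0096, 10 of 12 pairs higher), and 0.5% O2 was the sole level at which it passed. There its arrays read 9.41 and 9.09, against 8.08 and 8.25 in normoxia. The mean was 0.18 with median centring and then did not pass (adjusted p = 0.32).

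**Figure D2:**
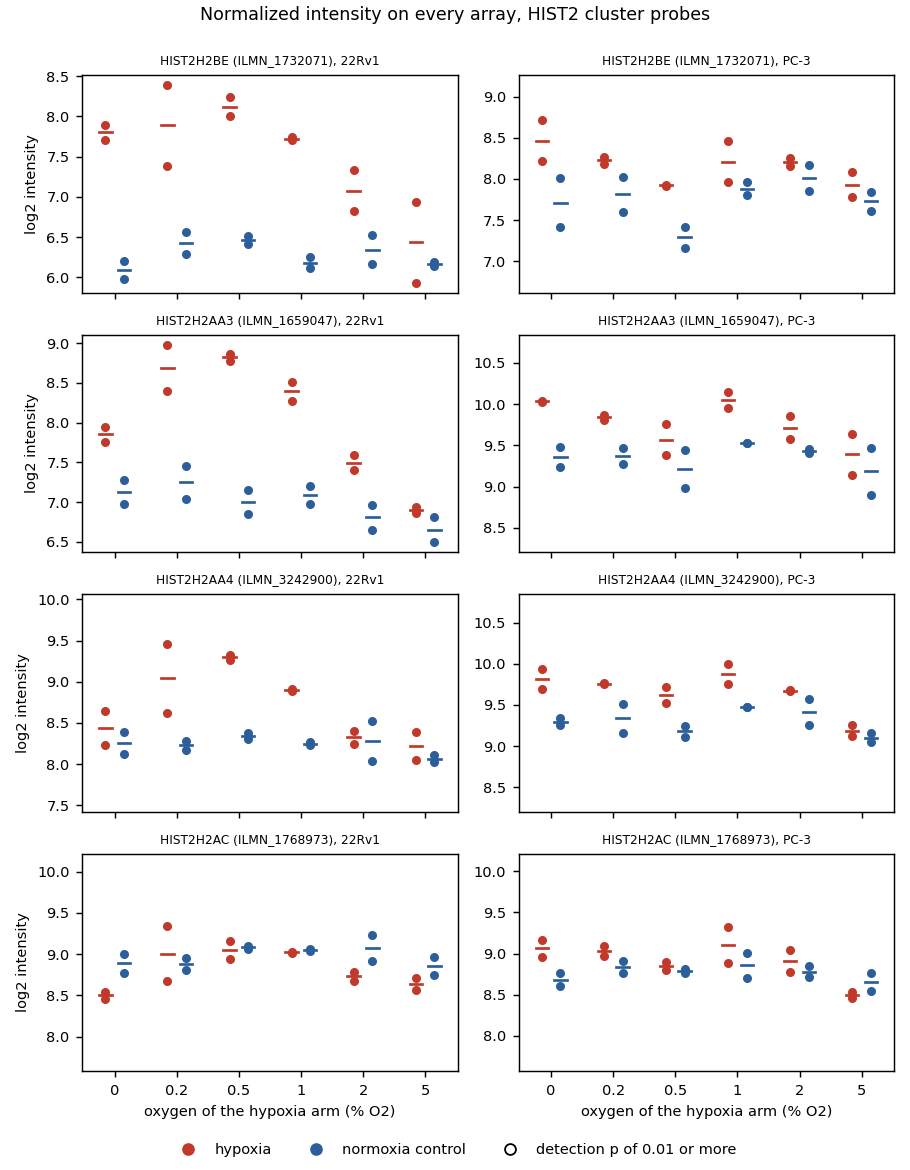
Log2 intensity on each array (points) and group means (lines) for HIST2H2BE, HIST2H2AA3, HIST2H2AA4 and HIST2H2AC, by oxygen level of the hypoxia arm (% O2), with hypoxia in red left of its normoxia control in blue, in 22Rv1 (left panels) and PC-3 cells (right panels). HIST2H2AC stays between 8.46 and 9.34 in 22Rv1 cells while HIST2H2BE reaches 8.39 there, against a normoxia median of 6.23.

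HIST1H4H is one of the H4 genes, which encode the same H4 protein. It lies outside the rule for named probes, because it was detected on fewer than 12 of the 24 22Rv1 arrays, and is described because its values stood out. In 22Rv1 cells it was detected on 6 of 12 hypoxia arrays and 0 of 12 normoxia arrays. It read 6.47 and 6.45 at 0% O2, 5.97 and 5.18 at 0.2%, 4.89 and 5.42 at 0.5%, 4.62 and 5.27 at 1%, 4.59 and 4.57 at 2%, and 4.46 and 4.45 at 5%, against 4.31 to 4.62 in normoxia. The level was thus highest at 0% O2 and at background from 2% upward. At 0% O2 it was at least 2.43-fold higher than in normoxia (adjusted p = 2.1e-08). That bound sets the mean of the bright group against the lowest signal detected on each dim array, or the probe's own signal where that is higher. At 0.2% O2 the bound was 1.33-fold (adjusted p = 0.00047), and the call was lost without hypoxia replicate 1 (0.78, adjusted p = 0.097) and with the doubted labels exchanged (0.49, adjusted p = 0.99992), but not without both doubted arrays (1.65, adjusted p = 0.00014). At 0.5% O2 the call (0.73, adjusted p = 0.013) was lost without hypoxia or normoxia replicate 2, with median centring and with the labels exchanged. The exchange of labels left 0 of all probes tested called at 0.2% O2. Over all levels HIST1H4H was at least 1.04-fold higher (adjusted p = 5.4e-08, higher in 11 of 12 pairs). The fitted log2 difference there was 0.72, and since every normoxia array lay at background, this and the other fitted log2 differences of the probe in 22Rv1 cells, contrasts between levels and lines included, give a direction and not a measured size. In PC-3 cells the same probe was detected on all 24 arrays, between 8.01 and 9.08, and its mean difference of 0.20 ± 0.09 (SE) did not pass, while it passed with the replicate block (adjusted p = 0.049). The other H4 probes of HIST1 and HIST2 did not share this pattern: at 0% O2 in 22Rv1 cells their differences ran from -0.58 (HIST1H4E) to 0.50 (HIST2H4A).

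For HIST1H2BD and HIST1H2BK, both H2B genes, the array holds 2 member probes each, and in 22Rv1 cells the fitted mean differences of the probes of a gene had opposite signs, although 1 of the HIST1H2BD probes lay near background. HIST1H2BD probe ILMN_1758623 read 4.86 and 4.90 at 0% O2, where neither array detected it, against 5.79 and 6.12 in the 0% normoxia controls, which both did, a difference of at least 1.85-fold downward (adjusted p = 8.2e-05). Over all levels it read 4.86 to 5.83 (median 5.24) in hypoxia and 5.46 to 6.12 (median 5.91) in normoxia. It fell by a fitted mean of 0.58 on the log2 scale (SE 0.08, adjusted p = 4.3e-07, lower in 11 of 12 pairs). Detection on 8 of 12 hypoxia and 12 of 12 normoxia arrays leaves the size of this fall uncertain. Probe ILMN_1651496 of the same gene read 4.30 to 5.37 (median 4.86) in hypoxia, detected on 2 of 12 arrays, and 4.27 to 4.54 (median 4.40) in normoxia, detected on 0 of 12. Its fitted mean difference was 0.43 ± 0.07 (SE, adjusted p = 4.7e-06, higher in 11 of 12 pairs), a direction without a measured size, because 22 of the 24 arrays did not detect it.

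Both HIST1H2BK probes were detected on every array. Probe ILMN_1796179 read 8.80 to 9.76 (median 9.38) in 22Rv1 hypoxia and 8.80 to 9.16 (median 8.94) in normoxia, a mean difference of 0.42 ± 0.07 (SE, adjusted p = 2.9e-06, 10 of 12 pairs higher). It was higher by 0.70, 0.70 and 0.60 at 0.2, 0.5 and 1% O2, and at 0% O2 its difference of -0.04 did not pass. With median centring the calls at 0.2, 0.5 and 1% O2 were all lost (0.54, 0.55 and 0.37, adjusted p = 0.31, 0.15 and 0.48). That at 0.2% was also lost with the doubted labels exchanged (0.07, adjusted p = 0.99992) and without hypoxia replicate 1 or normoxia replicate 2, and that at 1% with the exchange and without normoxia replicate 1 or hypoxia replicate 2. The exchange left 0 of all probes tested called at 0.2% O2. Probe ILMN_1813314 read 5.83 to 7.34 (median 6.59) in hypoxia and 6.64 to 7.34 (median 6.85) in normoxia. It fell by a mean of 0.32 (SE 0.06, adjusted p = 2.9e-05, lower in 11 of 12 pairs). Its fall of 0.75 at 0% O2 passed (adjusted p = 9.9e-05), but not with median centring (adjusted p = 0.073). There it read 5.83 and 6.09 in hypoxia and 6.64 and 6.78 in normoxia. Across the 24 22Rv1 arrays the 2 probes correlated with r = 0.01, and across the 24 PC-3 arrays with r = 0.67. These values describe arrays that share treatments and scaling.

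In PC-3 cells the member probes of a gene did not go opposite ways. Both HIST1H2BD member probes rose there, by means of 0.57 ± 0.07 (ILMN_1651496, adjusted p = 1.1e-07) and 0.45 ± 0.08 (ILMN_1758623, adjusted p = 7.6e-05), each in 12 of 12 pairs, and they correlated with r = 0.95 over 24 arrays. The third probe of the gene was undetected in PC-3 cells too. The first read 9.02 to 9.75 (median 9.38) in hypoxia and 8.57 to 9.07 (median 8.87) in normoxia. The HIST1H2BK probes had mean differences of -0.01 and -0.02 in PC-3 cells.

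**Figure D3:**
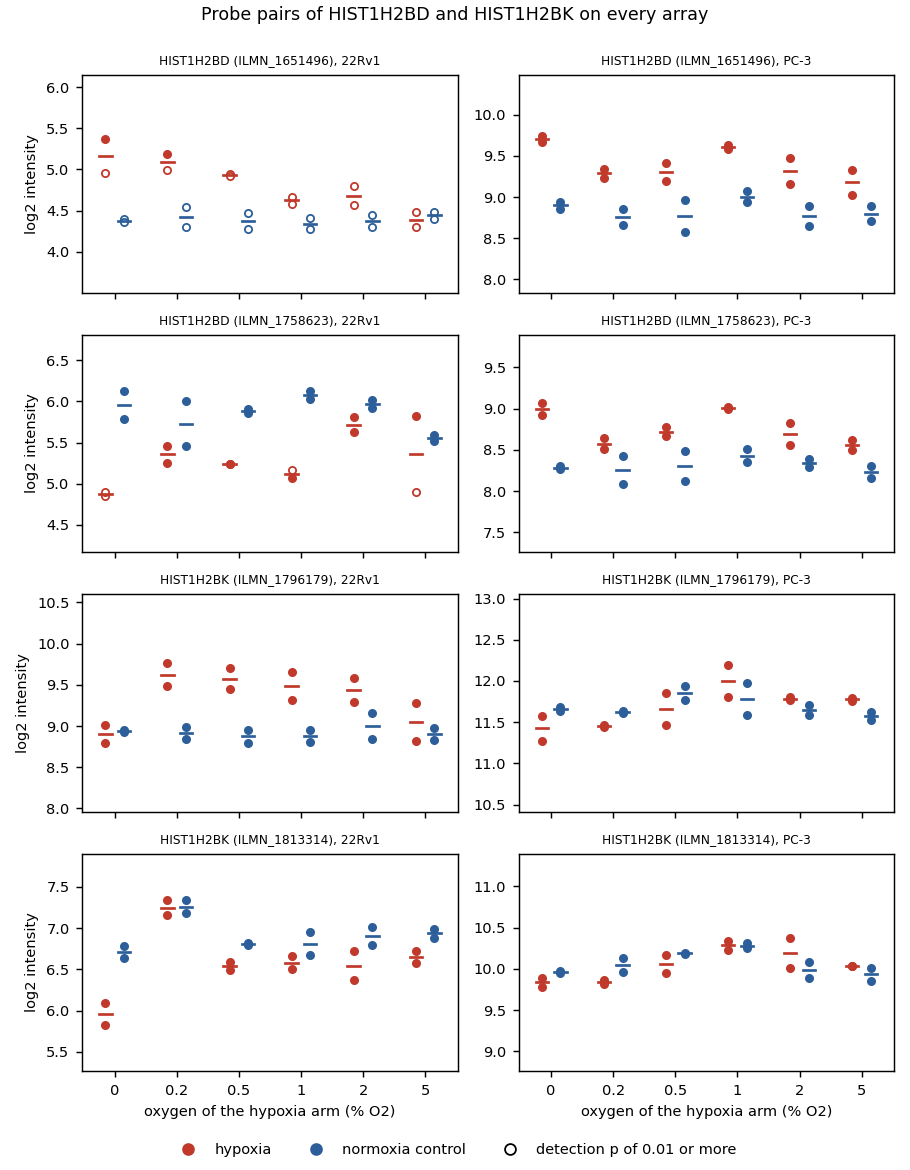
Log2 intensity on each array (points; open where the detection p was 0.01 or more) and group means (lines) for both probes of HIST1H2BD and of HIST1H2BK, by oxygen level of the hypoxia arm (% O2), hypoxia in red and its normoxia control in blue. In 22Rv1 cells (left) the fitted means are 0.43 and -0.58 for HIST1H2BD, whose first probe was detected on 2 of 24 arrays, and 0.42 and -0.32 for HIST1H2BK, and in PC-3 cells (right) the probes of a gene do not part.

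The falls in 22Rv1 cells were small and most lay near the detection limit. Of the H3 genes, HIST1H3C fell by 0.43 on the log2 scale (SE 0.09, adjusted p = 0.00017) and HIST1H3H by 0.40 (SE 0.10, adjusted p = 0.0019), both lower in 12 of 12 pairs, and HIST2H3D by 0.26 (SE 0.09, adjusted p = 0.015). HIST1H3C read 4.28 to 4.80 in hypoxia, detected on 0 of 12 arrays, and 4.49 to 5.23 in normoxia, detected on 2. HIST1H3H read 4.34 to 4.99 in hypoxia, detected on 0 of 12, and 4.69 to 5.29 in normoxia, detected on 5. Groups overlapped for both. The H2A gene HIST1H2AM fell by 0.38 (SE 0.11, adjusted p = 0.0039, lower in 12 of 12 pairs) and was detected on 1 of 12 hypoxia and 10 of 12 normoxia arrays.

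Of the H4 genes, HIST1H4K was detected on every array and fell by 0.32 (SE 0.09, adjusted p = 0.0049, lower in 11 of 12 pairs), with 5.96 to 6.88 (median 6.42) in hypoxia and 6.24 to 7.04 (median 6.78) in normoxia. HIST1H4E fell by 0.30 (SE 0.09, adjusted p = 0.0051) without being detected on any 22Rv1 array, so neither group has more than a bound. The linker histone gene HIST1H1C, detected on every array, fell by 0.29 (SE 0.10, adjusted p = 0.021, lower in 10 of 12 pairs), with 6.34 to 7.19 (median 6.72) in hypoxia and 6.51 to 7.44 (median 7.09) in normoxia. Its call was lost with the doubted labels exchanged, with median centring, with 0% O2 left out and without 1 of 4 single arrays (hypoxia replicate 1 at 1% or 0.2%, normoxia replicate 2 at 2% or 0%), where the adjusted p was 0.051 to 0.11. HIST1H2BG (-0.22) and HIST1H1A (0.17) were undetected on all or all but 2 of the 24 arrays, and their calls were lost in many alternatives, 17 of 24 single-array omissions for HIST1H1A. HIST2H3D lost its call with the labels exchanged (-0.14, adjusted p = 0.28) and without normoxia replicate 2 at 1% O2.

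At 0% O2 the pattern in 22Rv1 cells differed from that at 0.2 to 1% O2 for 4 probes. The difference between the change at 0% and the mean change at 0.2, 0.5 and 1% was positive for 1 histone probe (5.8% of all probes) and negative for 3 (5.17%). HIST1H4H changed by 1.16 more at 0% (SE 0.25, adjusted p = 0.0017). HIST2H2AA3 probe ILMN_1659047 changed by -0.80 (SE 0.23, adjusted p = 0.021), and the HIST1H2BK probes by -0.70 (ILMN_1796179) and -0.58 (ILMN_1813314). With the labels exchanged 2 calls remained, HIST1H4H at 1.39 and HIST1H2BK ILMN_1813314, and without both doubted arrays 1 probe was higher and 5 lower. With the replicate block 1 was higher and 6 lower (17.8% of all probes called), with median centring 1 was higher and 0 lower, and single arrays moved the count to 2 (without normoxia replicate 2 at 0%) or 7 (without hypoxia replicate 2 at 0.2%). In PC-3 cells limma called 0 of 36 in this comparison (0% of all probes), with 2 at an unadjusted p under 0.05.

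In PC-3 cells HIST2H2AA3, HIST2H2AA4, HIST2H2BE, HIST1H2BD and HIST1H2BC rose, and most histone probes did not pass the test. Averaged over levels, 6 of 36 probes were higher in hypoxia (9.54% of all probes) and 2 lower (11.7%), and with the replicate block 11 were higher and 4 lower (28.8% of all probes called). The median difference was 0.08, against -0.01 over all probes tested, and the range -0.30 to 0.57. HIST2H2AA3 probe ILMN_1659047 read 9.14 to 10.14 (median 9.83) in hypoxia and 8.90 to 9.53 (median 9.45) in normoxia and rose by 0.42 ± 0.08 (SE, adjusted p = 0.00026, 12 of 12 pairs higher). HIST2H2AA4 rose by 0.35 ± 0.08 (adjusted p = 0.00065, 12 of 12 pairs), a call lost with median centring (adjusted p = 0.064), and HIST2H2BE by 0.42 ± 0.11 (adjusted p = 0.0046, 11 of 12 pairs). The second HIST2H2AA3 probe differed by 0.34 ± 0.13 and passed with the replicate block (adjusted p = 0.012). HIST1H2BC, an H2B gene, rose by 0.27 ± 0.08 (adjusted p = 0.012, 12 of 12 pairs), a call also lost with median centring (0.23, adjusted p = 0.11).

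HIST1H2BH, a further H2B gene, fell in PC-3 cells by a fitted 0.29 (SE 0.07, adjusted p = 0.0010, lower in 9 of 12 pairs). It was detected on 7 of 12 hypoxia and 12 of 12 normoxia arrays, which leaves the size of the fall uncertain. It read 5.65 and 5.59 at 0% O2, 5.05 and 4.87 at 0.2%, 4.67 and 5.09 at 0.5%, 4.88 and 4.61 at 1%, 5.09 and 5.21 at 2%, and 5.12 and 5.21 at 5%, against 5.11 to 5.66 in normoxia. Its lowest values lay at 0.2 to 1% O2, and at 0% O2 both arrays read above their own controls (5.31 and 5.29), a difference of 0.32 that did not pass. HIST1H4K fell by 0.30 (SE 0.09, adjusted p = 0.016, lower in 11 of 12 pairs), much as in 22Rv1 cells, and lost the call without hypoxia replicate 2 at 0% O2 (adjusted p = 0.055).

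Single levels gave few calls in PC-3 cells. At 0% O2, 3 histone probes were higher (3.86% of all probes) and 1 lower (3.62%), and without any 1 of the 4 arrays the count was 1. The higher ones were both HIST1H2BD probes (0.80 and 0.71) and HIST2H2AA3 ILMN_1659047 (0.68). The replicate block gave 7 higher and 1 lower at this level (13.9% of all probes called), adding HIST2H2AA3 ILMN_2144426 (0.84), HIST2H2AA4 (0.51), HIST2H2AC (0.38) and HIST2H2BE (0.75). The lower one was HIST1H4C, the brightest histone probe, which read 12.92 and 12.83 at 0% O2, against 13.35 and 13.30 in its controls (-0.45 ± 0.12, SE, adjusted p = 0.017). At 0.2 to 5% O2 it read 13.29 to 13.67 in hypoxia, and in 22Rv1 cells 13.47 to 13.87 in hypoxia and 13.51 to 13.83 in normoxia. The HIST1H4C call was lost without any 1 of the 4 arrays, at an adjusted p of 0.062 to 0.14. With median centring limma called 0 of the 36 at this level, and the adjusted p was 0.14 and 0.34 for the HIST1H2BD probes, 0.39 for HIST2H2AA3 ILMN_1659047 and 0.33 for HIST1H4C.

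At 0.5% O2 in PC-3 cells 0 histone probes were higher (2.18% of all probes) and 1, HIST1H2BH, was lower (1.33%), and this call was lost without hypoxia or normoxia replicate 1. Limma called 0 of 36 at 0.2% O2 (3.98% of all probes called), 1% (1.07%), 2% (0.247%) and 5% (0.00442%), with 6, 6, 3 and 1 probes at an unadjusted p under 0.05. With the block HIST1H2BD ILMN_1651496 passed at 0.2, 0.5 and 1% O2 (0.53, 0.54 and 0.60), levels at which the block called 9.1, 8.57 and 3.47% of all probes.

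The change with hypoxia differed between 22Rv1 and PC-3 cells for 12 of 36 histone probes, tested as the difference of the mean changes, 22Rv1 minus PC-3. Of these, 7 were positive (9.72% of all probes) and 5 negative (10.5%), and with median centring 6 and 2. The largest positive differences belonged to HIST2H2BE (0.81 ± 0.16, SE, adjusted p = 0.00021), both HIST2H2AA3 probes (0.62 ± 0.12, adjusted p = 0.00018, and 0.62 ± 0.18, adjusted p = 0.012) and HIST1H4H (0.52 ± 0.13, adjusted p = 0.0029). The largest negative one was HIST1H2BD ILMN_1758623 (-1.03 ± 0.11, adjusted p = 3.6e-08). With the doubted labels exchanged 3 were positive and 5 negative, HIST2H2BE (0.67, adjusted p = 0.026) among them, while HIST2H2AA3 (0.46 and 0.49), HIST1H4H (0.41) and HIST1H2BK ILMN_1796179 (0.33) did not pass. Without both doubted arrays 7 were positive and 7 negative. The replicate block also gave 7 and 7 (29.1% of all probes called).

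At 0% O2 the lines differed in the change of 1 probe upward (5.58% of all probes), HIST1H4H, and 4 downward (5.07%), HIST1H2BD ILMN_1758623, HIST1H4E, HIST2H2AC and HIST1H2BK ILMN_1813314. For HIST1H4H, HIST1H2BD ILMN_1758623 and HIST1H4E, undetected in at least 1 of the 22Rv1 groups compared, this is a direction and not a measured size. With median centring the split was 1 and 1. Without 1 array the count was 3 or 4, and HIST2H2AC lost its call in 5 of the 8 omissions and HIST1H2BK ILMN_1813314 in 7.

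The largest differences of all were between the lines in normoxia. In 22Rv1 cells 28 of 36 histone probes were lower than in PC-3 cells (31.7% of all probes were) and 4 were higher (36.8%), with a median difference of -0.97, against 0.03 over all probes tested. All 11 H2B probes were lower, 6 of 7 H4, 6 of 10 H2A, 4 of 6 H3 and 1 of 2 H1. The ranges of the 12 normoxia arrays of each line did not overlap for 23 of the 36 probes. That count has no share over all probes beside it and is not read as particular to histones. Of all probes tested, 70.0% differed between the lines in normoxia at an unadjusted p under 0.05 in limma. These counts, 28 and 4, were the same with the doubted labels exchanged and without both arrays. Members were admitted by detection in either line. HIST1H2AE, HIST1H2AG, HIST1H2BC, HIST1H2BE, HIST1H2BG, HIST1H2BH, HIST1H3D, HIST1H4E and HIST2H2AB were detected on no 22Rv1 array and entered through PC-3 cells alone. HIST1H2BJ and HIST2H2BF, with 1 22Rv1 array each, did so too. HIST1H1A and HIST2H3D entered through 22Rv1 cells alone. For all of these the rule favoured the direction, and the other probes tested passed the same rule.

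Several HIST1 genes were at background in 22Rv1 cells and bright in PC-3 cells. HIST1H2AC, an H2A gene, averaged 4.51 ± 0.15 in 22Rv1 cells, detected on 0 of 12 arrays, and 9.26 ± 0.16 in PC-3 cells, detected on 12 (SD, n = 12 each), at least 17.4-fold lower in 22Rv1. HIST1H2BD ILMN_1651496 averaged 4.39 ± 0.09 and 8.83 ± 0.15 (at least 13.0-fold lower), HIST1H4H 4.47 ± 0.10 and 8.41 ± 0.25 (at least 9.71-fold lower) and HIST1H2BJ 4.75 ± 0.17 and 7.59 ± 0.24 (at least 5.50-fold lower). HIST1H2BK was detected in both lines and differed by -3.16 ± 0.06 (SE) and -2.77 ± 0.07 on its 2 probes, and HIST1H2BD ILMN_1758623 by -2.45 ± 0.08. HIST2H2AA3, HIST2H2BE and HIST2H2AA4, which rose in 22Rv1 hypoxia, were lower in 22Rv1 normoxia than in PC-3 normoxia, with log2 differences of -2.36 (HIST2H2AA3 ILMN_1659047), -1.68 (ILMN_2144426), -1.46 (HIST2H2BE) and -1.06 (HIST2H2AA4). The highest 22Rv1 array for HIST2H2AA3 ILMN_1659047 under hypoxia, 8.98 at 0.2% O2, passed the lowest PC-3 normoxia array (8.90) but not the PC-3 normoxia median (9.45).

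The 4 probes higher in 22Rv1 normoxia were HIST3H2A (8.27 ± 0.14 and 7.88 ± 0.27, difference 0.40 ± 0.10), HIST2H3D (5.13 ± 0.25, detected on 7 of 12 arrays, and 4.83 ± 0.15, detected on 0), HIST2H2AC (8.97 ± 0.14 and 8.77 ± 0.13) and HIST1H4C (13.70 ± 0.09 and 13.51 ± 0.15), each given as 22Rv1 and PC-3 mean with SD (n = 12 each). Their arrays overlapped between the lines, and with median centring HIST3H2A (0.27) and HIST2H2AC (0.07) did not pass. The brightest histone probe and the bidirectional partner of HIST2H2BE were close in the lines, while most H2B probes were not. Of these H2B probes, HIST1H2BC, HIST1H2BE, HIST1H2BG, HIST1H2BH, HIST1H2BJ and HIST2H2BF entered through PC-3 cells alone. The detection rule favoured their direction, and a contrast between classes was not tested. For HIST2H2BF the call (-0.21, lower in 22Rv1) was lost without 1 of 4 single arrays (PC-3 replicate 1 at 2% or 1%, PC-3 replicate 2 at 0%, 22Rv1 replicate 1 at 5%), at an adjusted p of 0.051 to 0.068.

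**Figure D4:**
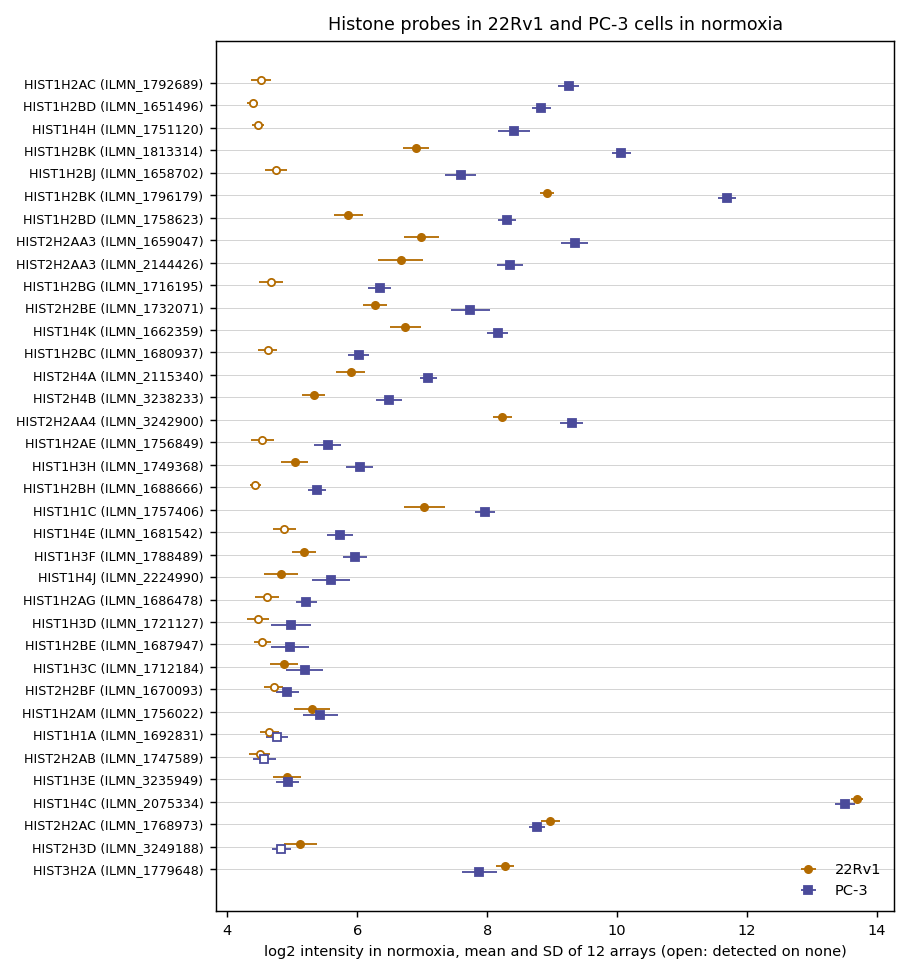
Mean log2 intensity (points) with SD (bars) over 12 normoxia arrays per line for 36 histone probes, 22Rv1 as circles and PC-3 as squares, open where the probe was detected on none of them. Rows are ordered by the difference of the plotted means, from HIST1H2AC at the top to HIST3H2A at the bottom (0.40), and a row with an open symbol has only a bound on its difference.

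Without background correction all 36 mean differences were closer to 0 in each line, and part of the calls at single levels and between the lines were lost. Then 8 probes were higher and 9 lower in the 22Rv1 mean (17.6 and 20.5% of all probes) and 8 higher and 2 lower in the PC-3 mean (9.74 and 11.5%). The calls lost in 22Rv1 cells were those of HIST1H1A and HIST1H2BG, and those gained in PC-3 cells were HIST1H4H (0.16) and HIST2H2AA3 ILMN_2144426 (0.29). HIST2H2BE then differed by 0.76 in 22Rv1 cells, against 1.23 with correction, HIST2H2AA3 ILMN_1659047 by 0.75 against 1.04, and HIST1H4H by 0.28 against 0.72. Bright probes changed little, such as HIST1H2BK ILMN_1796179 with 0.37 against 0.42. Opposite signs of the HIST1H2BD probes (0.18 and -0.22) and the HIST1H2BK probes (0.37 and -0.17) in 22Rv1 cells were also present without correction, and all 4 passed. For 0% O2 beyond the other levels it gave 1 positive and 3 negative in 22Rv1 cells (5.89 and 4.93% of all probes). In normoxia 28 probes were lower and 4 higher in 22Rv1 either way (31.7 and 36.9% of all probes without correction), and the median difference was -0.36 without correction.

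Without correction the difference of the change between the lines lost 3 of its 12 calls, those of HIST1H4H (0.11, adjusted p = 0.32), HIST1H2BK ILMN_1813314 (-0.15, adjusted p = 0.085) and HIST2H2AA3 ILMN_2144426 (0.35, adjusted p = 0.058), and gained 3, those of HIST1H2BD ILMN_1651496 (-0.32), HIST1H2BE (-0.15) and HIST1H3C (-0.13). The counts were 5 positive and 7 negative (10.2 and 10.6% of all probes). At 0% O2 that comparison then gave 0 positive and 3 negative (5.99 and 5.2%), and HIST1H4H differed by 0.38 (adjusted p = 0.19). By level, 22Rv1 cells gave 4 higher and 4 lower at 0% O2 without correction (12.1 and 13.5% of all probes), 6 and 0 at 0.2% (4.82 and 4.3%), 6 and 0 at 0.5% (11.6 and 12.9%), where 4 of 10 calls were lost, and 6 and 1 at 1% (6.25 and 6.19%). PC-3 cells gave 4 and 1 at 0% (4.15 and 3.57%), 1 and 0 at 0.2% (2.61 and 1.71%), 1 and 0 at 0.5% (2.41 and 1.42%) and 2 and 0 at 1% (1.1 and 0.177%).

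**Figure D5:**
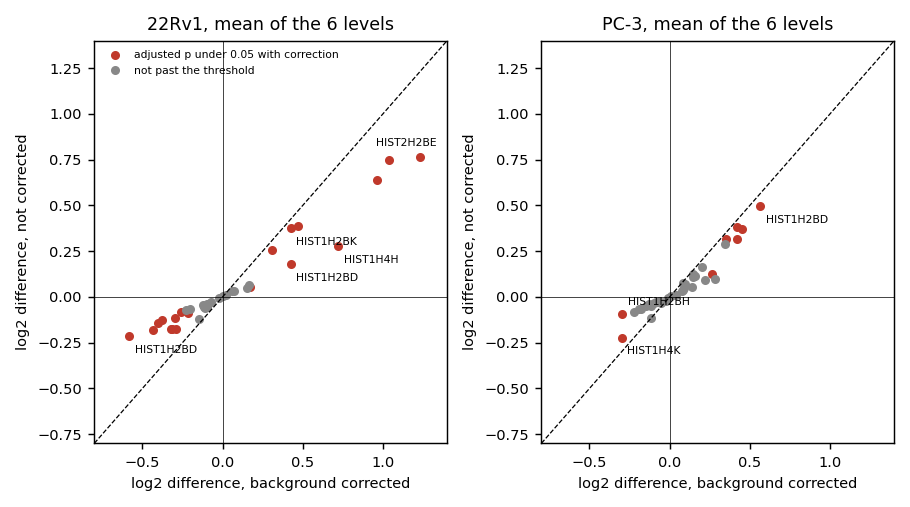
Mean log2 difference over 6 oxygen levels with background correction (horizontal) and without (vertical) for 36 histone probes in 22Rv1 and PC-3 cells, red where adjusted p was under 0.05 with correction. The dashed line marks equal values, and all 36 points of each line lie closer to 0 without correction, as HIST2H2BE with 1.23 and 0.76 in 22Rv1 cells.

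Members that passed on neither mean numbered 15. Besides HIST2H2AC, HIST1H4C and HIST1H2AC, they included HIST2H4A, which in 22Rv1 cells read 6.43 and 6.36 at 0% O2 and 5.64 and 5.33 at 5%, against 5.56 to 6.25 in normoxia, with a difference of 0.50 at 0% O2 and of -0.58 at 5%. Neither value passed, and that at 0% passed with the replicate block (adjusted p = 0.029). HIST1H2AC passed in 22Rv1 cells at 0.5% O2 (0.57 ± 0.19, SE, adjusted p = 0.026), detected on 1 of the 2 hypoxia arrays there, and the call was lost without hypoxia replicate 1 or normoxia replicate 2 and with median centring. Likeness over the 24 22Rv1 arrays was highest between HIST2H2AA3 ILMN_2144426 and HIST2H2BE (r = 0.93), and HIST2H2AC correlated with HIST2H2BE by 0.04 there and by 0.64 over the 24 PC-3 arrays. These are descriptions over arrays that share treatments and scaling.

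Of 21 genes of replicative DNA synthesis, 0 were higher and 20 lower in the 22Rv1 mean (median -0.98), and 0 higher and 10 lower in the PC-3 mean (median -0.23). Of all probes tested, 17.5% were higher and 20.9% lower in the 22Rv1 mean and 9.54% and 11.7% in the PC-3 mean, which also holds for the lists that follow. The largest 22Rv1 changes were those of POLE2, a polymerase epsilon subunit (-1.59 ± 0.10, SE), RRM2, a subunit of ribonucleotide reductase (-1.27 ± 0.13), and GINS2, part of the replicative helicase (-1.25 ± 0.11), and in PC-3 cells those of POLE2 (-0.54), PRIM1 (-0.54) and RFC3 (-0.50). Of 17 measured genes for histone mRNA processing and transcription, 1 was higher and 11 lower in 22Rv1 cells (median -0.27) and 0 and 5 in PC-3 cells (median -0.13), with CCNE2 (-1.45), CCNE1 (-0.95) and CSTF2 (-0.71) changed most in 22Rv1 cells and CSTF2 (-0.32), ZNF473 (-0.31) and CPSF3 (-0.29) in PC-3 cells. SLBP, the stem-loop binding protein, fell by 0.26 (SE 0.06) in 22Rv1 cells and differed by -0.08 in PC-3 cells. In normoxia it was 2.71 higher on the log2 scale in 22Rv1 cells than in PC-3 cells. Of the 17 measured genes of this list, 8 were higher and 3 lower in that comparison (36.8 and 31.7% of all probes). A link to the histone probes was not tested.

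Of 15 measured histone chaperones 2 were higher and 10 lower in 22Rv1 cells (median -0.23), led by CHAF1B (-1.26) and CHAF1A (-1.16), subunits of the CAF-1 complex that deposits new H3-H4, and ASF1B (-0.94), and 0 and 2 in PC-3 cells (median -0.04), NASP (-0.30) and SET (-0.13), a count near the 11.7% of all probes. Of 11 replication-independent histone variants 1 was higher and 7 lower in 22Rv1 cells (median -0.20), with H2AFX (-0.88), CENPA (-0.71) and H1FX (-0.63) changed most, and 1 and 1 in PC-3 cells (median -0.04), H1F0 higher (0.48 ± 0.06) and H2AFY2 lower (-0.32), counts near the shares of all probes.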

How the data were processed

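Total RNA of 2 cell lines was hybridized to 48 Illumina bead arrays. The deposited table gives, per the file headers, an average intensity and a detection p-value per probe and array, not normalized. The submitters' processing notes name BeadStudio 3.1.3.0. A second deposited table holds the authors' values of the same arrays, and served as an alternative. Its normalization is not stated in the labels or headers. Intensities were background-corrected against negative controls inferred from the detection p-values, quantile-normalized and put on the log2 scale (neqc, offset 16), in limma 3.58.1 under R 4.3.3. Probes with a detection p under 0.01 on 2 or more arrays were tested, 22637 in all, with 24 group means, lmFit and eBayes, and Benjamini-Hochberg adjustment at 0.05. The number of arrays limits the precision. The fit was tested on simulated data.

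The columns marked A and B were taken as replicates 1 and 2. Same-numbered arrays deviated together, with correlations of 0.17 to 0.46 in 22Rv1 and of 0.32 to 0.45 in PC-3 cells. Results with the replicate number as a block are therefore given where they change a count, and for some of the calls they change. The members and gene lists were chosen with earlier results of these data known. Values were given for up to 14 member probes past the threshold on the mean or at 0% O2 and detected on at least 12 of the 24 arrays of that line, ranked by size, for the 4 brightest past it on neither mean, for probes that share a named symbol, and for the 3 largest changes per list and line; HIST1H4H in 22Rv1 cells and the members with small changes were added after their values were seen. Alternatives were no background correction, median centring, the authors' values, other filters, array weights, pooled controls, the replicate block, exchanged labels and leaving out arrays.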

Additional observations from a re-analysis of the deposited data

Results flagged for a closer look

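In 22Rv1 cells the change at 0% O2 differed from the mean change at 0.2, 0.5 and 1% O2 for 4 probes, by limma's test of that difference on the log2 scale. It was 1.16 for HIST1H4H (adjusted p = 0.0017), whose 22Rv1 normoxia arrays all lay at background so that its differences have a direction but no measured size, -0.80 for HIST2H2AA3 ILMN_1659047 (adjusted p = 0.021), -0.70 for HIST1H2BK ILMN_1796179 (adjusted p = 0.010) and -0.58 for HIST1H2BK ILMN_1813314 (adjusted p = 0.016).

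The mean change under hypoxia differed between the lines, 22Rv1 minus PC-3, for 12 probes. The positive differences were 0.81 for HIST2H2BE (adjusted p = 0.00021), 0.62 for both HIST2H2AA3 probes (adjusted p = 0.00018 and 0.012), 0.52 for HIST1H4H (adjusted p = 0.0029), 0.43 for HIST1H2BK ILMN_1796179 (adjusted p = 0.00089), 0.36 for HIST1H2BH (adjusted p = 0.0044) and 0.35 for HIST1H1A (adjusted p = 0.0082). The negative ones were -1.03 for HIST1H2BD ILMN_1758623 (adjusted p = 3.6e-08), -0.52 for HIST1H4E (adjusted p = 0.0018), -0.38 for HIST1H2BC (adjusted p = 0.012), -0.29 for HIST1H2BK ILMN_1813314 (adjusted p = 0.0087) and -0.29 for HIST2H2AC (adjusted p = 0.027). HIST1H2BH, HIST1H2BC and HIST1H4E were detected on no 22Rv1 array. HIST1H1A was detected on no PC-3 array and on 2 hypoxia arrays of 22Rv1. Like those of HIST1H4H, their differences give a direction and no measured size.

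At 0% O2 the lines differed in the change of 5 probes: HIST1H4H by 1.49 (adjusted p = 0.0012), HIST1H2BD ILMN_1758623 by -1.78 (adjusted p = 3.5e-05), HIST1H4E by -1.12 (adjusted p = 0.010), HIST2H2AC by -0.77 (adjusted p = 0.028) and HIST1H2BK ILMN_1813314 by -0.62 (adjusted p = 0.038). Of all probes, 5.58% differed upward and 5.07% downward. HIST1H4E was detected on no 22Rv1 array, and HIST1H2BD ILMN_1758623 on neither 22Rv1 hypoxia array at 0% O2. For them and HIST1H4H the values give a direction and no measured size.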

How the results depend on the processing

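Counts of histone probes called are given with the count as reported first. In PC-3 cells at 2% O2 it was 0, and 1 with pooled controls. At 1% O2 it was 0, and 2 without background correction, with the authors' values under either labelling or with array weights, 1 with the replicate block and 5 with pooled controls. At 0.5% O2 it was 1, and 0 with no filter on dim probes, and 2 with detection on 12 arrays, the replicate block or pooled controls. At 0.2% O2 it was 0, and 1 without background correction, with the authors' values under either labelling, the block or weights, and 4 with pooled controls. At 0% O2 it was 4, and 0 with median centring, 8 with the block or pooled controls and 7 with weights. The PC-3 mean gave 8, and 15 with the block. In 22Rv1 cells at 2% O2 it was 0, and 1 with detection on 12 arrays, the brightest probe per gene, weights or both doubted arrays left out, 3 with the block and 5 with pooled controls. At 0.5% O2 it was 10, and 6 without background correction, with the authors' values under either labelling or with weights, and 5 with median centring. At 0.2% O2 it was 7, and 4 with median centring or weights, 0 with the authors' values or exchanged labels, and 11 with pooled controls. At 0% O2 it was 9, and 14 with the block. For 0% beyond the other levels it was 4, and 1 with median centring or the authors' values, 2 with exchanged labels and 7 with the block. The difference of the mean change between the lines gave 12, and 7 with the authors' values. At 0% O2 it gave 5, and 3 without background correction, with the authors' values under either labelling or without the filter, and 2 with median centring. Calls over all probes moved with the settings as well. With median centring they were 631 in PC-3 cells at 0% O2, and in 22Rv1 cells 3197 at 0.5% and 724 at 0.2%. In PC-3 cells they went from 242 to 1219 with pooled controls at 1% O2, and from 900 to 2432 at 0.2%. In 22Rv1 cells at 2% O2 they went from 746 to 2286 with the block and 2292 with pooled controls. At 0.2% O2 in 22Rv1 cells they were 0 with the authors' values under their own labels and 0 with exchanged labels. The cause of these shifts was not tested. Leaving out 1 array gave 0 to 2 in PC-3 cells at 0.5% O2, 1 to 1 at 0% and 8 to 11 on the mean. In 22Rv1 cells it gave 4 to 5 at 1%, 6 to 9 at 0.5%, 2 to 7 at 0.2%, 5 to 8 at 0%, 16 to 20 on the mean and 2 to 7 for 0% beyond the other levels. Between the lines it gave 11 to 15 for the mean change, 3 to 4 at 0% and 31 to 33 in normoxia. With median centring the median of all probes shifted by 0.20 in PC-3 cells at 5% O2, by -0.26 at 0.5%, by -0.18 in 22Rv1 cells at 5% and by 0.10 for the line difference at 0% O2. Of 1790 values for named probes under the alternatives, 1695 kept their side of the threshold, of which 1659 also kept direction and 36, uncalled both ways, changed sign (in 11 results); 48 lost the call, 47 gained one and 0 called values reversed.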
